A study of Macaca mulatta with 16 samples.

Results

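In FFPE cardiac tissue, 10 genes that mark the atrial chambers of the heart were followed: NPPA, MYL4, MYL7, SLN, MYBPHL, PAM, KCNJ3, GJA5, CHRM2 and DKK3. They were taken by gene symbol from a table of 19425 genes, in which 9 of the 10 had a row, and all 9 were among the 14165 genes tested. Sarcolipin, SLN, an inhibitor of the calcium pump of atrial muscle, had no row in the table used here, neither under its symbol nor at its RefSeq place on chromosome 14 (100954032 to 100958790, Mmul_10), so it carries no value below.

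The tissue came from 8 rhesus macaques (Macaca mulatta), was fixed in formalin and embedded in paraffin, and was extracted by each of 2 methods. Method QE was a Qiagen AllPrep extraction with xylene and additional ethanol washes, and Method BL was an RNAstorm extraction with a longer lysis. Each animal gave 1 library of total RNA per method, depleted of rRNA, which made 16 libraries in 8 pairs, and an animal is named as in its Method BL library. The labels describe the tissue only as cardiac and give no chamber, age or treatment of an animal, so the 8 animals are compared as single animals and not as groups. The study worked with right ventricular pressure overload in these macaques, and which of the 8 were exposed is not in the labels.

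Atrial and ventricular muscle build the same contractile apparatus from partly different genes. Atrial muscle uses its own essential and regulatory myosin light chains, encoded by MYL4 and MYL7, where ventricular muscle uses MYL3 and MYL2. It stores atrial natriuretic peptide, the product of NPPA, in secretory granules whose membranes are rich in the enzyme PAM, and it answers the vagus nerve through the muscarinic receptor CHRM2 and the potassium channel subunit KCNJ3. Ventricular muscle is known to express NPPA before birth and again under load, together with NPPB.

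By mean CPM in either method, not divided by transcript length, the 9 genes fell into a low and a moderate to high set. NPPA, MYL4, MYL7 and MYBPHL, the low genes, summed to between 3.23 and 61.3 CPM in a library, whereas PAM alone gave 377 to 610 CPM. The sets overlapped in single libraries, with NPPA at 44.5 CPM and KCNJ3 at 35.6 CPM in the Method BL library of I30. Per kb of transcript, the means of MYL7 (11.9) and NPPA (8.61) lay above those of KCNJ3 (7.82) and GJA5 (7.56). All 4 of the low genes differed between animals, where 31.5% of all genes tested did, and NPPA ran from 0 counts to a mean of 37.5 CPM. Between the methods, no atrial marker gene passed the threshold. Of all genes tested 2.14% did, a small share in which 0 of 9 is no result about the atrial genes. CPM here are estimated counts per 1 M of the library total after TMM scaling.

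Library totals were 15.0 to 25.8 M counts for Method BL and 19.3 to 25.7 M for Method QE, and mitochondrially encoded protein genes took 20.3 to 43.6% of them. One field of the labels gives the Qiagen kit also for the 8 RNAstorm libraries, against their titles, and the titles were followed. One animal, rh2957, stood apart in the summed level of 7 cardiomyocyte genes. It was 2604 CPM in the Method BL library and 4209 CPM in the Method QE library of rh2957, against 7174 to 12782 CPM in the other 14 libraries. The 7 ventricular genes did not set both libraries apart. They summed to 10081 CPM in the Method BL library of rh2957, the lowest of all. In its Method QE library they summed to 19322 CPM, within the 15513 to 24145 CPM of that method. Most of both sums came from the row of MYH7, with 8885 and 16672 CPM. That row also spans the place of MYH6, the atrial heavy chain, so the sum is by itself no measure of ventricular muscle. Leukocyte genes summed to 479 CPM in the Method BL library and to 307 CPM in the Method QE library of rh2957, and to 73.4 to 205 CPM in the others. Tests in which this animal weighed most are also given without it, and 24.6% of 14143 genes tested then differed between animals.

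The stretches directly upstream of the gene start are shown for NPPA and MYL7, the genes with the widest spread and with the smallest adjusted p between animals. Each is 250 bases before the RefSeq start on Mmul_10, plus strand, 5′ to 3′. The rows counted start further downstream, for NPPA at 212612900 against 212612509 in RefSeq, and for MYL7 at 71077657 against 71077584. Positions are given from the RefSeq start. Capitals mark matches on either strand to 4 patterns: the CArG box bound by serum response factor, GATAA bound by GATA factors, GGTGTG bound by T-box factors, and AGGTCA, a half-site of nuclear receptors.
NPPA, chr1:212612259-212612508: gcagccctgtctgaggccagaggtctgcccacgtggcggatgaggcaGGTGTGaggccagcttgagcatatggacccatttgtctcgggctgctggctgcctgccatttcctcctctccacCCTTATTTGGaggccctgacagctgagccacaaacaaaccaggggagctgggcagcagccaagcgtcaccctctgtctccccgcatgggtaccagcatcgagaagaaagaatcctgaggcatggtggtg
MYL7, chr3:71077334-71077583: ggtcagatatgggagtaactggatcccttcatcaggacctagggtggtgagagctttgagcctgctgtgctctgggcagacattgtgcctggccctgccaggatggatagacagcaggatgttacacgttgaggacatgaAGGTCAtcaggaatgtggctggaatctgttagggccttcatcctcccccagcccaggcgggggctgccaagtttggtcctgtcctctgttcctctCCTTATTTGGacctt
NPPA and MYL7 each held a CArG box, with the same 10 letters CCTTATTTGG in both windows, at positions -129 to -120 of NPPA and -15 to -6 of MYL7. A CArG box was found in 1.02% of the 20787 windows of the same length before protein coding genes, GGTGTG in 14.8%, AGGTCA in 12.9% and GATAA, which had no match in the windows shown, in 19.4%. None of the marked matches overlapped another. These are letters in a window and no measure of binding.

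NPPA (ENSMMUG00000007834, chromosome 1, 212612900 to 212614627 of Mmul_10), the precursor of atrial natriuretic peptide, showed the widest spread. With Method BL its level was lowest at 0 CPM, had a median of 4.38 CPM and reached 44.5 CPM, and with Method QE it was lowest at 0 CPM, had a median of 0.755 CPM and reached 30.5 CPM (n = 8 each). Animal I30 was highest with either method, animal 16116 followed with 31.2 and 12.1 CPM, and animal r15089 had no NPPA count in either library, where 3 counts, the limit that a count of 0 allows, correspond to 0.145 and 0.164 CPM. The mean of both libraries was thus at least 242-fold higher in I30 than the mean of those limits in r15089, counting error only being covered by the limit. In bulk tissue, fewer cells that express a gene and less of its RNA per cell cannot be told apart.

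NPPA was among the 6 of 9 atrial marker genes that differed between animals in edgeR's quasi-likelihood test of all animal terms (adjusted p = 0.00763 for NPPA), while 31.5% of all genes tested passed the same test. With 1 animal left out in turn, 5 to 7 of the 8 or 9 atrial genes tested passed. Of all genes, 3345 to 4840 passed in those runs, out of 14134 to 14212 tested. Within the 5 animals whose Method BL names end in B, 7 of 9 passed, with KCNJ3 and DKK3 in and MYBPHL out, beside 3499 of 14186 genes. Within the 3 that end in R, r15045, r15089 and rh2957, 0 of 9 did in edgeR (4 of 9 at an unadjusted p below 0.05). There 751 of 14291 genes passed, a small share in which 0 of 9 is no result about the atrial genes. The libraries of an animal did not always share a level. Animal rh2957 had 16.4 CPM (402 counts) with Method BL and 0.264 CPM (7 counts) with Method QE, a 62.3-fold difference, and animal 2740 had 6.77 and 0.413 CPM. Animal r15045 went the other way, with 1.54 CPM (22 counts) and 9.82 CPM (272 counts). Fibroblast genes summed to 1118 CPM in the Method BL library and to 4590 CPM in the Method QE library of r15045, and in animal 16116 to 6670 and 1671 CPM, the former the highest of all libraries. Of the 8 genes summed, COL1A1 ran from 26.5 to 2642 CPM with Method BL, COL3A1 from 44.9 to 1491 CPM and COL1A2 from 48.0 to 1132.5 CPM. DCN, another of the 8, ran from 454 to 901 CPM with Method BL and did not differ between animals (adjusted p = 0.556, edgeR). The sum therefore moved mainly with collagen genes and is by itself no measure of fibroblast content. The part of fibroblasts in the NPPA levels was not tested. Without animal rh2957 the adjusted p between animals was 0.00146 (edgeR).

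NPPB, which encodes the related B-type peptide and is no member of the set, was highest in the same animals as NPPA. In I30 it reached 86.6 CPM with Method BL and 34.5 CPM with Method QE, and in 16116 it reached 52.0 and 29.7 CPM. In the Method QE library of r15045, NPPB stood at 13.7 CPM against 2.17 CPM in the Method BL library, a 6.33-fold difference beside a 6.38-fold difference of NPPA. In animal rh2957 the peptides parted: NPPB was at 5.32 CPM with Method BL and 9.28 CPM with Method QE. NPPB also passed the test between animals (adjusted p = 0.000733, edgeR).

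**Figure D1:**
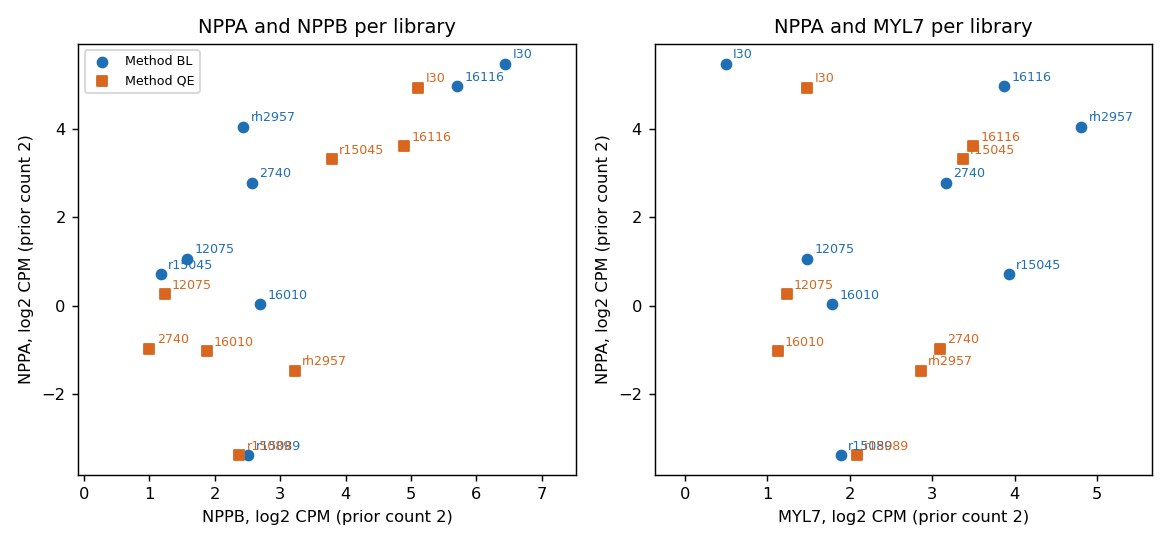
NPPA (vertical axis, log2 CPM with a prior count of 2) against NPPB (left) and MYL7 (right) in each of the 16 libraries, labelled by animal, with circles for Method BL and squares for Method QE. Animals I30 and 16116 lie at the upper right of the NPPB plot, while I30, at 1.32 and 2.702 CPM of MYL7, lies at the upper left of the MYL7 plot.

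All 11 other genes listed for the natriuretic peptide system, from processing enzymes to receptors and effectors and with NPPB included, had a row. None passed the threshold between methods, and 4 of 11 differed between animals, a share near the 31.5% of all genes (3 of 11 without rh2957). CORIN, the protease that cleaves the NPPA precursor, ranged from 32.3 to 157 CPM (adjusted p = 0.000102), and FURIN, a convertase of propeptides, from 61.1 to 141 CPM (adjusted p = 0.0128, both edgeR). The third was NPPB itself and the fourth NPR1, the receptor of both peptides, at 18.1 to 39.4 CPM (adjusted p = 0.0131).

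PAM (ENSMMUG00000007844, chromosome 6, 100140490 to 100418213), the amidating enzyme of granule membranes, was the most even gene of the set. Its level with Method BL ran from 377 through a median of 561 to 610 CPM, and with Method QE from 486 through a median of 567 to 596 CPM (n = 8 each). The lowest library of either method was that of animal rh2957, and the ranges of the methods overlapped. Between the highest and the lowest animal, r15089 and rh2957, the means of 603 and 432 CPM differed 1.40-fold (1.21-fold to the second lowest animal, r15045), and the test between animals was not passed (adjusted p = 0.313, edgeR). PAM made up 56.9 to 77.9% of the summed CPM of the 9 genes in a library. The animal that had no NPPA count, r15089, thus had the highest PAM level.

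MYL4 (ENSMMUG00000018600, chromosome 16, 58386180 to 58401190), the atrial essential light chain, was lowest at 0.484 CPM, had a median of 3.28 CPM and reached 14.3 CPM with Method BL. With Method QE it ran from 0.164 CPM (3 counts) through a median of 1.58 CPM to 10.9 CPM. Animals 16116 and r15045 were high with both methods, at 8.30 and 10.2 CPM and at 6.44 and 10.9 CPM, and r15089 and 16010 stayed below 1 CPM with both. The highest Method BL value belonged to animal rh2957, whose Method QE library held 1.81 CPM, 7.88-fold less. The animals differed (adjusted p = 0.00193, edgeR), with 28.6-fold between the means of 16116 and r15089, and they did so without rh2957 as well (adjusted p = 0.000210).

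MYL7 (ENSMMUG00000002426, chromosome 3, 71077657 to 71080637), the atrial regulatory light chain, had the smallest adjusted p between animals of the 9 genes (0.000981, edgeR). With Method BL it ran from 1.32 through a median of 6.25 to 27.9 CPM, and with Method QE from 2.09 through a median of 5.66 to 11.2 CPM. Animals r15045 and 16116 lay above 10 CPM in both libraries, and I30, 12075, 16010 and r15089 lay below 5 CPM in both. Animal rh2957 was highest with Method BL and at 7.16 CPM with Method QE, and its mean of 17.5 CPM was 8.73-fold that of I30, the lowest. Without rh2957 the adjusted p was 0.000180. MYL7 lies inside the row of DBNL on the other strand, and use of strand in counting is not given in the sources used here, so reads from both cannot be told apart with certainty.

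The atrial genes therefore did not order the animals alike. By the mean of both libraries, I30 had the highest NPPA and the lowest MYL7, though with Method QE its MYL7 lay above that of 16010 and 12075, while r15045 and 16116 were high in MYL4 and MYL7. As a description over 8 animals within a method, Pearson's r of log2 CPM was 0.76 with Method BL and 0.85 with Method QE for NPPA and MYL4, 0.73 and 0.58 for MYL4 and MYL7, and 0.20 and 0.18 for NPPA and MYL7. The libraries of a method share the animals with those of the other.

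MYBPHL (ENSMMUG00000008713, chromosome 1, 114837038 to 114849623), a myosin-binding protein of atrial sarcomeres, was the least abundant, with 1 to 94 counts per library. Its level ran from 0.283 through 0.670 to 3.08 CPM with Method BL and from 0.0548 through 0.327 to 3.39 CPM with Method QE (lowest, median, highest). Animal r15045 was highest with both methods. Its mean was 18.8-fold that of r15089, and the animals differed (adjusted p = 0.0125, edgeR), also without rh2957 (0.00759) but not within the 5 animals with names ending in B, which leave out r15045 (0.285). Animal rh2957 again differed between its libraries, with 2.62 and 0.339 CPM.

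**Figure D2:**
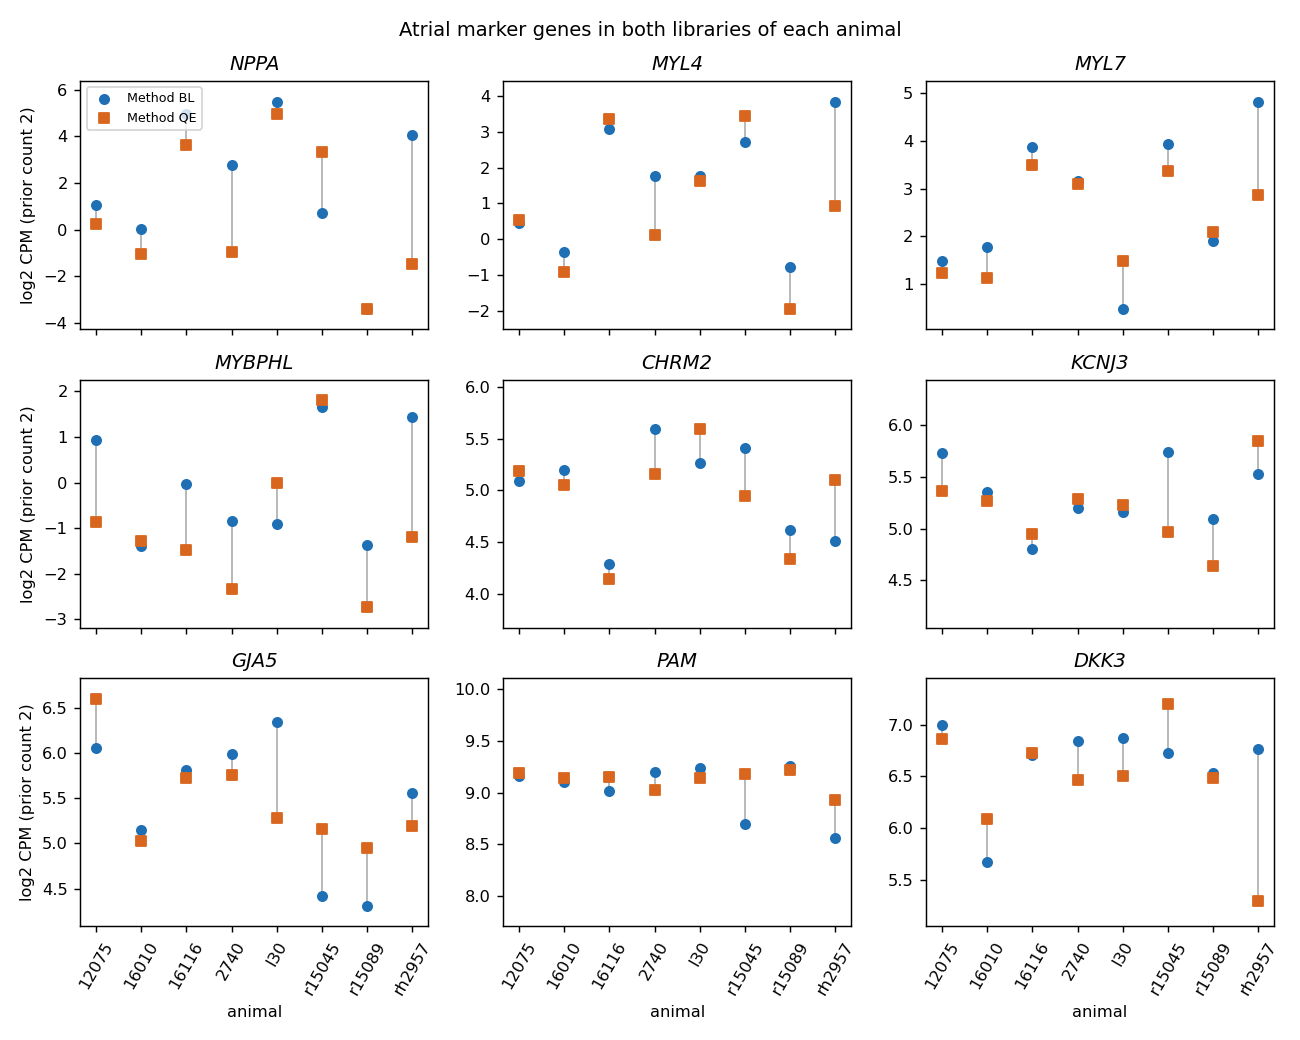
log2 CPM (vertical axes, prior count 2, each gene with its own range) of the 9 measured atrial marker genes in the 8 animals (horizontal axis), circles for Method BL and squares for Method QE, joined by a line for an animal. The pairs of rh2957 stand widest apart for NPPA, MYL4, MYL7, MYBPHL and DKK3, all higher with Method BL, and for CHRM2, higher with Method QE, and PAM is nearly level across animals.

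CHRM2 (ENSMMUG00000054019, chromosome 3, 163446234 to 163447713), the muscarinic receptor through which the vagus slows the heart, was present in every library. It ran from 19.5 through a median of 35.3 to 48.3 CPM with Method BL and from 17.6 through 33.6 to 48.1 CPM with Method QE. Animal 16116 was lowest with both methods, I30 had the highest mean at 43.3 CPM, and the means differed 2.33-fold. The animals differed (adjusted p = 0.00848, edgeR), a call that was lost without 16116 (adjusted p = 0.0615). The row covers 1.48 kb, a single stretch within the longer RefSeq gene.

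KCNJ3 (ENSMMUG00000007096, chromosome 12, 41803504 to 41959943), a subunit of the potassium channel opened by CHRM2, ran from 27.8 through 38.7 to 53.5 CPM with Method BL and from 24.8 through 37.8 to 57.3 CPM with Method QE. Animal rh2957 had the highest mean at 51.6 CPM, followed by 12075 at 47.1 CPM, and 16116 the lowest at 29.3 CPM, and the ranges of the methods overlapped. The test between animals was not passed (adjusted p = 0.0645, edgeR), though it was without animal r15045 (adjusted p = 0.0153), whose libraries held 53.5 and 31.2 CPM. The call also changed with the tool and the filter. With all animals it was passed in DESeq2 (adjusted p = 0.00826) and in edgeR without the filter on low counts (adjusted p = 0.0454). It was not passed with limma voom (adjusted p = 0.0846). A row of an unnamed gene on the other strand overlaps KCNJ3.

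Of 13 further genes of muscarinic and potassium channel signalling, 11 were tested, none passed between methods (2.14% of all genes) and 6 differed between animals (31.5% of all genes), or 4 without rh2957. BCHE, which degrades choline esters, ranged from 2.00 to 8.53 CPM (adjusted p = 0.00305), and RGS6, which speeds the turn-off of the G protein, from 3.48 to 13.9 CPM (adjusted p = 0.00657, both edgeR). ADORA1, the adenosine receptor that opens the same channel, ranged from 2.31 to 8.75 CPM (adjusted p = 0.0314). KCNJ5, the partner subunit of KCNJ3, gave 3.43 to 7.89 CPM and did not pass (adjusted p = 0.128).

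GJA5 (ENSMMUG00000001803, chromosome 1, 102325881 to 102342990) encodes connexin 40, the gap junction protein of atrial muscle, the Purkinje system and arterial endothelium. It ran from 19.7 through a median of 51.6 to 81.0 CPM with Method BL and from 30.8 through 37.6 to 97.0 CPM with Method QE. Animal r15089 was lowest with both methods, and 12075 was highest with Method QE and second to I30 with Method BL. The means of 12075 and r15089, 81.8 and 25.3 CPM, differed 3.24-fold, and the animals differed (adjusted p = 0.0134, edgeR). In I30 the libraries parted, with 81.0 CPM with Method BL and 38.7 CPM with Method QE.

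GJA5 and arterial endothelial genes did not run in the same order. The 6 arterial endothelial genes listed, GJA5 not among them, summed to 51.8 and 41.8 CPM in the libraries of 12075 (Method BL, then Method QE), and to 62.1 and 64.2 CPM in those of r15089, where GJA5 was lowest. SOX17 and HEY1, transcription factors of arterial endothelium, were among the 3 of 6 that differed between animals (adjusted p = 0.00255 and 0.00160, edgeR), where 31.5% of all genes did and 3 of 6 did without rh2957 as well.

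DKK3 (ENSMMUG00000022862, chromosome 14, 53614479 to 53661399), a secreted glycoprotein of the Dickkopf family, ran from 51.1 through 107 to 128 CPM with Method BL and from 39.2 through 90.2 to 147 CPM with Method QE. Animal 16010 had the lowest mean at 59.6 CPM, r15045 the highest at 126 CPM, and animal rh2957 held 108 CPM with Method BL and 39.2 CPM with Method QE. The test between animals was not passed (adjusted p = 0.151, edgeR), though it was without rh2957 (adjusted p = 0.0196). DKK3 is expressed by fibroblasts as well as by atrial muscle, and the part of fibroblasts in its level was not tested.

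Divided by transcript length, the levels fell into an order that the spread between animals only partly separated. PAM stood first at a mean of 116 CPM per kb (SD 11.8, n = 8 animals) and lay above DKK3, at 35.2 (SD 8.17), in 8 of 8 animals. CHRM2 followed at 22.1 CPM per kb, below DKK3 in 7 of 8 animals, and MYL7 at 11.9, below CHRM2 in 6 of 8 and above NPPA in 7 of 8. NPPA at 8.61, KCNJ3 at 7.82 and GJA5 at 7.56 CPM per kb were not separated: NPPA lay above KCNJ3 in 2 of 8 animals and KCNJ3 above GJA5 in 4 of 8. GJA5 lay above MYL4 in 5 of 8 animals. MYL4 at 4.13 lay above MYBPHL at 0.691 CPM per kb in 8 of 8 animals. The lengths were those of the longest RefSeq mRNA, except for CHRM2, where the length of its row was used. The longest RefSeq mRNA of CHRM2 has 5998 bases against 1.48 kb for the row, so the place of CHRM2 in the order rests on that choice.

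The methods were compared for each gene within animals. No atrial marker gene of 9 passed edgeR's quasi-likelihood test of the method, where 2.14% of all genes tested passed (0.854% higher and 1.28% lower with Method QE), and at an unadjusted p below 0.05 there was 1, MYBPHL, against 2552 of all 14165 genes. The median log2 fold change of Method QE against Method BL was -0.18 over the 9 genes, 7 of which lay below 0, against 0.0036 over all genes tested. Neither limma nor DESeq2 called any of the 9, and each had 1 gene at an unadjusted p below 0.05.

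The low genes had the widest intervals. NPPA gave a log2 fold change of -1.33 (SE 0.68, 95% interval -2.80 to 0.15, adjusted p = 0.330, edgeR) and stood lower in the Method QE library of 6 animals, higher in that of 1 and at 0 counts in both libraries of the remaining animal. MYBPHL gave -1.02 (SE 0.45, 95% interval -1.98 to -0.05, unadjusted p = 0.0403 from edgeR over 8 pairs, adjusted p = 0.253) and stood lower in the Method QE library of 5 of 8 animals. MYL4 gave -0.60 (95% interval -1.42 to 0.22, adjusted p = 0.432, edgeR) and MYL7 -0.41 (95% interval -0.92 to 0.10, adjusted p = 0.389, edgeR).

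These differences were smaller without animal rh2957, with a log2 fold change of -0.73 for NPPA, -0.66 for MYBPHL, -0.18 for MYL4 and -0.15 for MYL7 in the remaining 7 (edgeR), and none passed. Of the runs with 1 animal left out, this one gave the smallest differences. In the others they reached -1.96 for NPPA (without r15045, adjusted p = 0.0754, edgeR), -1.16 for MYBPHL, -0.90 for MYL4 and -0.57 for MYL7. All stayed below 0 and none passed. The Method BL library of rh2957, high in all 4 genes, was low in the ventricular light chains, with 896 CPM of MYL2 and 143 CPM of MYL3, and its adipocyte genes summed to 151 CPM against 16.6 to 70.3 CPM elsewhere. Mesothelial genes summed to 106 CPM in that library and to 1.09 CPM in the Method QE library of the same animal. Over all animals, ITLN1 had a mean of 107 CPM with Method BL and 96.3 CPM with Method QE. MSLN, the next highest of these genes, had means of 6.15 and 3.41 CPM. The mesothelial sum therefore moved mainly with ITLN1 and is by itself no measure of mesothelial content. The part of such other cells in the atrial levels was not tested.

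The moderate to high genes were measured more tightly. PAM gave a log2 fold change of 0.09 (95% interval -0.09 to 0.28), CHRM2 -0.06 (-0.30 to 0.18), KCNJ3 -0.13 (-0.37 to 0.10), DKK3 -0.18 (-0.53 to 0.18) and GJA5 0.00 (-0.35 to 0.35). None of the 5 passed (adjusted p from 0.569 for KCNJ3 to 0.998 for GJA5, edgeR). The sign of GJA5 changed with the scaling and with the animals left out.

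**Figure D3:**
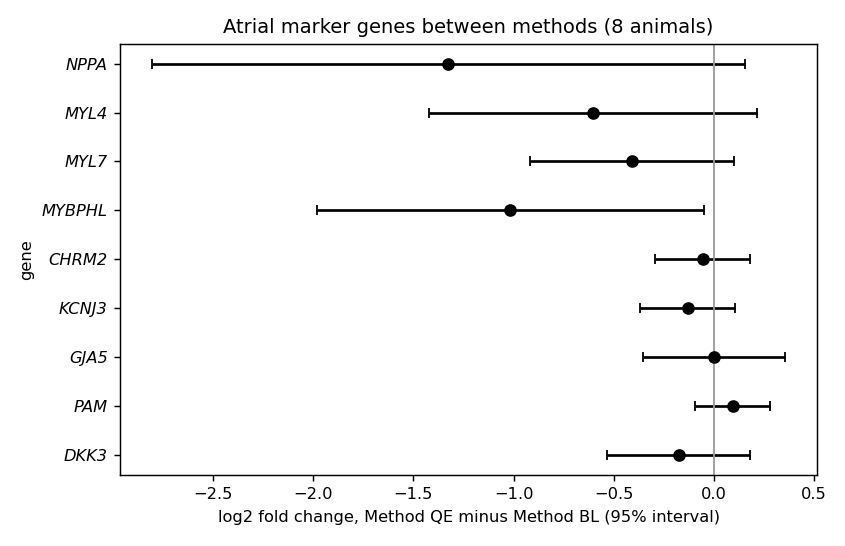
log2 fold change of Method QE against Method BL (horizontal axis) of the 9 measured genes with 95% intervals from the edgeR fit over 8 animals, with a line at 0. The interval of NPPA runs from -2.80 to 0.15 and that of PAM from -0.09 to 0.28, and the interval of MYBPHL alone lies wholly below 0.

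The atrial light chains were set against their ventricular partners within each library, which removes the scaling between libraries. MYL7 was 0.0757 to 3.12% of MYL2 (median 0.382%) with Method BL and 0.0582 to 0.552% (median 0.299%) with Method QE. MYL4 was 0.124 to 10.01% of MYL3 (median 0.919%) with Method BL and 0.0393 to 2.59% (median 0.353%) with Method QE. The ventricular chain was thus the more abundant in all 16 libraries, with MYL2 at 896 to 3884 CPM and MYL3 at 143 to 621 CPM. The Method BL library of rh2957 was highest in both ratios, followed by 16116 with the same method.

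Both ratios stood lower in the Method QE library of most animals, by a mean of -0.69 on the log2 scale (SD 1.07) for MYL7 to MYL2 in 6 of 8 animals, and by -1.17 (SD 1.62) for MYL4 to MYL3 in 7 of 8. The ventricular partners themselves stood higher with Method QE in 7 of 8 animals each. Their log2 fold changes were 0.36 for MYL2 (adjusted p = 0.183) and 0.45 for MYL3 (adjusted p = 0.127, both edgeR), and neither gene passed. A lower ratio is therefore by itself no measure of a lower atrial chain. Under exact permutation of the signs of the 8 paired differences in each ratio, two-sided, the p-values were 0.0469 and 0.0625, and both became 0.0938 after adjustment over the 3 ratios computed, so neither ratio passed. The smallest p this test can give is 0.00781. Without rh2957 the mean differences were -0.35 and -0.71 (both adjusted p = 0.188, exact permutation), and without r15045 MYL4 to MYL3 gave -1.49 and passed (adjusted p = 0.0469, exact permutation). Connexin 40 against connexin 43, GJA5 to GJA1, was 6.80 to 39.8% (median 18.8%) with Method BL and 8.91 to 28.4% (median 14.9%) with Method QE, with a mean log2 difference of -0.05 (SD 0.76, exact permutation p = 0.883, n = 8).

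**Figure D4:**
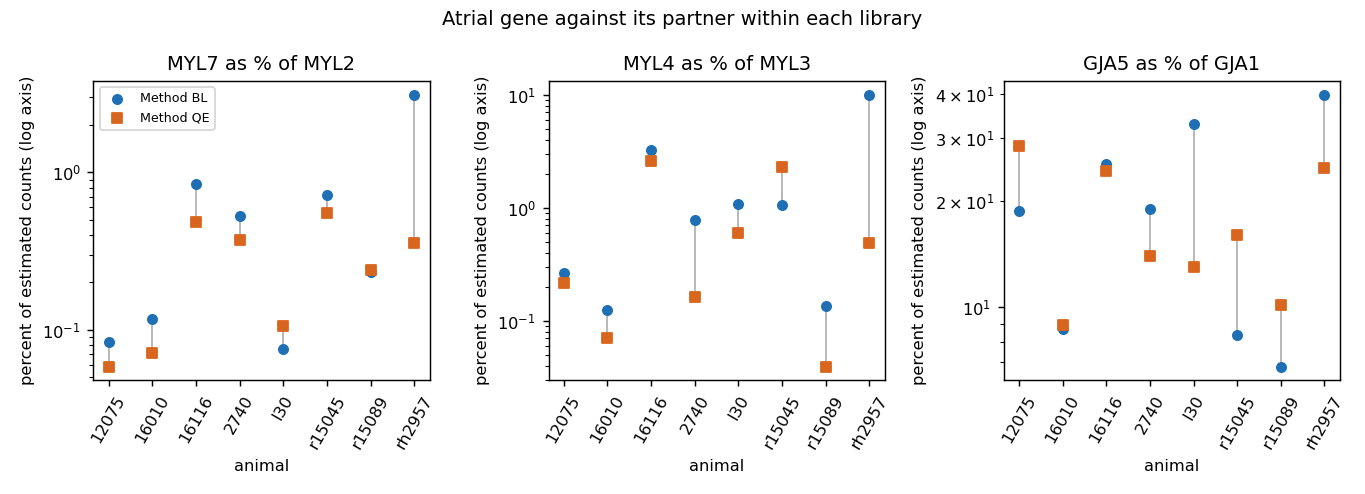
MYL7 as a percentage of MYL2, MYL4 of MYL3 and GJA5 of GJA1 (vertical log axes) in each animal, circles for Method BL and squares for Method QE, from estimated counts. The Method BL library of animal rh2957 is the highest point for the light chains, at 3.12 and 10.01%.

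A pair of ratios of the same kind could not be computed. The row of MYH7, the ventricular heavy chain, spans chromosome 7 from 85418247 to 85475213 and holds the RefSeq place of MYH6, the atrial heavy chain, which has no row of its own. The row gave 8659 to 19581 CPM, in which MYH6 and MYH7 cannot be told apart. SLN had no row, and PLN, its ventricular counterpart, lies within the row of CEP85L on the other strand.

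Among 10 other atrial genes listed, 7 had a row, and 5 of 7 differed between animals (31.5% of all genes did, and 4 of 7 without rh2957), none between methods. KCNK3, an acid-sensitive potassium channel, ranged from 0.193 to 4.52 CPM (adjusted p = 0.00568), and the nuclear receptors NR2F1 and NR2F2 from 1.22 to 14.6 and from 16.01 to 29.9 CPM (adjusted p = 0.0127 and 0.0270, edgeR). Of 7 ventricular genes tested, 5 differed between animals (also 5 without rh2957), with the smallest adjusted p for HEY2 (0.000597), IRX4 (0.0126) and MYL2 (0.0207). All 7 cardiomyocyte genes differed, led by ACTC1 (adjusted p = 4.71e-06), ACTN2 (0.00394) and RYR2 (0.00520), but without rh2957 1 of 7 did, ACTN2 (adjusted p = 0.0299).

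Calcium handling is where SLN acts. Of the calcium pump and its regulators, 6 genes were tested and 4 differed between animals, against 31.5% of all genes and 1 of 6 without rh2957, with the smallest adjusted p for CASQ2, the calcium store of the reticulum (157.7 to 646 CPM, adjusted p = 0.00226), SRL (0.00516) and RYR2 (edgeR). Of 9 conduction system genes tested, 3 differed between animals, near the share of all genes and also 3 without rh2957: CACNA1G (adjusted p = 0.0140), ETV1 (0.0299) and the pacemaker channel HCN4 (0.0332).

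With all 8 animals, TBX3, a repressor of the working muscle program in conduction tissue, was the only gene of the lists examined past the threshold between methods. Of all genes tested 2.14% passed, and 1 gene among all the lists is no result about them. The mean of TBX3 was 19.7 CPM (SD 4.66, n = 8) with Method BL and 13.1 CPM (SD 2.23, n = 8) with Method QE, which is -0.57 on the log2 scale (SE 0.12, adjusted p = 0.0301, edgeR). Without rh2957, TBX3 still passed (adjusted p = 0.0463), and the fibroblast factor TCF21 passed as well, higher with Method QE (log2 fold change 0.68, adjusted p = 0.0198, edgeR). For other cell types, against 31.5% of all genes, those that differed between animals were 6 of 6 for leukocytes, 4 of 8 for endothelium, 3 of 8 for fibroblasts, 4 of 5 for smooth muscle, 3 of 4 for nerve, 1 of 5 for adipocytes, 1 of 1 for erythrocytes and 0 of 6 for mesothelium, and no skeletal muscle gene was abundant enough to be tested. Without rh2957 the counts became 5 of 8 for fibroblasts, 2 of 8 for endothelium, 3 of 5 for smooth muscle and 1 of 6 for mesothelium, those of leukocytes, nerve and adipocytes were as before, and the erythrocyte gene was not tested. Mesothelial genes nonetheless spanned 1.09 to 389 CPM in sum, with both libraries of I30 high at 262 and 324 CPM, though this sum moved mainly with ITLN1.

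Genes were ranked by likeness to the low atrial genes, taken as the mean log2 CPM of NPPA, MYL4, MYL7 and MYBPHL, with Pearson's r over 8 animals in each method and the lower r as the measure, among 7419 genes. The highest were TOR1AIP2 (r = 0.86 with Method BL and 0.86 with Method QE), PLXNB2 (0.80 and 0.84), SSC5D (0.79 and 0.91), BICC1 (0.79 and 0.80), COLEC12 (0.79 and 0.79) and IFFO1 (0.87 and 0.79). The lowest were VPS45 (-0.97 and -0.45), NT5DC1 (-0.84 and -0.96), TAX1BP1 (-0.94 and -0.24) and NDUFB4 (-0.82 and -0.94). These are descriptions without a test, the libraries share scaling and tissue makeup, and 3.13% of the genes had a lower r above 0.5.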

How the data were processed

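In Partek Flow, the authors mapped total RNA-seq reads to Mmul_10 (STAR 2.7.8a) and quantified Ensembl transcripts by expectation maximization, which gave the estimated counts of each gene. The deposited table holds these estimated counts without normalization, 76.7% of them whole within 1e-06, for genes with a summed count of at least 10. Fragments counted without molecular identifiers are not independent molecules. Pairs were formed from the animal that each library is named for, because a replicate number does not mark the same animal in both methods. Where nothing says that sections differed, p-values measure the spread between these libraries.

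Estimated counts were rounded, filtered with filterByExpr by method and scaled by TMM, and edgeR 4.0.16 in R 4.3.3 (quasi-likelihood F test) was fitted with animal and method, with Benjamini-Hochberg adjustment over 14165 genes and a threshold of 0.05. Method was tested as Method QE minus Method BL, and the animal terms were tested at once. Ratios within a library had a count of 0.5 added and were compared over all 256 sign assignments. Scripts were tested on simulated data. Alternatives included limma 3.58.1 (voom), DESeq2 1.42.0, other scalings and filters, no replicate block, animals left out in turn, and subsets by the last letter of the Method BL library name.

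The atrial genes and the other lists were chosen with earlier results of these data known. The genes named are those 9, SLN, the ratio partners, list members past the method threshold (at most 4 a list), the 3 of a list with the smallest adjusted p between animals, and 6 and 4 genes by likeness (mean log2 CPM of at least 3); NPR1, KCNJ5 TCF21 and single genes of other lists beyond these were chosen after their values were seen. Lists covered natriuretic peptides, muscarinic signalling, the calcium pump, conduction, other atrial, ventricular, cardiomyocyte, endothelial, arterial endothelial, fibroblast, smooth muscle, adipocyte, mesothelial, nerve, skeletal muscle, leukocyte and erythrocyte genes. Promoter windows and gene places came from RefSeq on Mmul_10.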

Additional observations from a re-analysis of the deposited data

Results flagged for a closer look

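Among 24 groups of 8 libraries (each gene or ratio within a method), 6 held a library far from the others by Dixon's test. The test was run on CPM and percentages without a log. Its rate of about 1 in 20 by chance holds for normally distributed values, and skewed values such as these pass more often. The 6 are therefore a list of libraries to look at and no excess over chance. NPPA stood at 30.5 CPM in animal I30 with Method QE, next to 12.1 CPM. MYBPHL stood at 3.39 CPM in animal r15045 with Method QE, next to 0.901 CPM. GJA5 stood at 97.0 CPM in animal 12075 with Method QE, next to 53.9 CPM. DKK3 was lowest at 51.1 CPM in animal 16010 with Method BL, next to 92.4 CPM. In the Method BL library of animal rh2957, MYL7 was 3.12% of MYL2, next to 0.847%, and MYL4 was 10.01% of MYL3, next to 3.27%.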

How the results depend on the processing

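No atrial gene passed between methods under any alternative run. Without a replicate block, 5 of all genes passed between methods in place of 303, DESeq2 called 592, the 5 animals whose Method BL names end in B gave 49, and the 3 ending in R gave 0 (870 at an unadjusted p below 0.05 in edgeR). Leaving out 1 animal in turn gave 37 to 355 genes between methods. The 6 atrial genes that differed between animals became 5 to 7 with an animal left out and 0 with the 3 animals ending in R, where 751 of all genes passed in place of 4461. The alternative without r15045 and rh2957, chosen after seeing the data, gave 7 of 8 tested, beside 4073 of 14156 genes.

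With an animal left out, the log2 ratio difference ran from -1.49 to -0.71 for MYL4 to MYL3 (adjusted p = 0.0469 without r15045, exact permutation test) and from -0.19 to 0.14 for GJA5 to GJA1. The log2 fold change of GJA5 turned to -0.023 (upper quartile scaling), -0.024 (voom), -0.0038 (at least 1 CPM in 8 libraries), -0.049 (no replicate block), -0.19 (animals ending in B) and -0.059 (without r15045 and rh2957), and ran from -0.10 to 0.15 with an animal left out. PAM turned to -0.013 (animals ending in B) and -0.016 (without r15045 and rh2957), and CHRM2 to 0.0021 without r15045 (-0.15 to 0.0021 with an animal left out). The causes were not tested. MYBPHL was removed by the filter in 5 settings. Ratios were not run for the 3 animals ending in R.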
